A study of Mus musculus with 18 samples.

Results

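The genes described here are those of the cell cycle and of proliferation, measured in the kidney cortex of 5 mouse strains after an antibody challenge. A gene was a member when its symbol named a cyclin, a cyclin-dependent kinase or inhibitor, a Cdc gene, a minichromosome maintenance (Mcm) helicase subunit, an Aurora kinase, Bub1, a centromere protein (Cenp) or an E2F factor, or was Top2a, Mki67, Pcna, Rrm1 or Rrm2. By this rule 219 of 46643 probes, for 113 symbols, were members on the array table of B6 and NZW. A search key shared between the array tables linked them to 88 of 46147 probes, for 70 symbols, on the table of BALB/c, DBA1 and 129/svj, and the other 43 symbols were read in B6 and NZW only. The rule is one of names, and it also takes 20 symbols with other roles, such as Cdc42 and its effectors.

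A dividing cell is driven through its cycle by kinases that need a cyclin partner. D-type cyclins with Cdk4 start the G1 phase and release E2F factors from the retinoblastoma protein, and E2F then turns on the genes for DNA replication, among them the Mcm helicase and both subunits of ribonucleotide reductase, Rrm1 and Rrm2. Mitosis follows under cyclin B with Cdk1 (named Cdc2a on these arrays), Aurora kinases and the centromere proteins, and inhibitors of the Cdkn family hold the cycle back. The adult kidney divides little, and after injury tubular cells and glomerular cells may re-enter the cycle, while infiltrating leukocytes can also divide.

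All animals were 2 months old and had been challenged with an antibody against the glomerular basement membrane (anti-GBM), which causes an immune nephritis, and no unchallenged mice were measured. The labels call B6 and BALB/c resistant and NZW, DBA1 and 129/svj sensitive to the disease, and 3 mice of each strain were measured, 15 in all. In the strains BALB/c, DBA1 and 129/svj, 1 mouse each (mouse 1) has a repeat array, which makes 18 arrays, and both arrays of such a mouse were averaged. Strains were compared within each table, and the time between challenge and tissue collection is not given in the sources used here. The listed genes of the proximal tubule were detected in every strain. The share of all probes detected per array (detection p of 0.05 or less) was 30.5% to 36.4%.

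A level below is the log2 of the background-corrected, quantile-normalised signal of a probe, and levels of different probes are not compared. Probes were tested when detected in at least 3 mice of the table, and a difference was called at a limma adjusted p under 0.05 over all tested probes. Of the members, 103 of 219 probes (72 symbols) were tested in B6 and NZW, and 33 of 88 probes (31 symbols) in BALB/c, DBA1 and 129/svj. No probe passed for 41 symbols in the first table and 39 in the second, and 30 and 34 of these symbols, respectively, were detected in no mouse. Top2a, the topoisomerase of dividing cells, cyclin B2, cyclin E1 and cyclin E2 passed in neither table. Kidney cortex is a mixture of cells, in which fewer cells expressing a gene and less RNA per cell cannot be told apart. Probe sequences were not held, and whether the strains differ in sequence under a probe was not tested.

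The question of the first comparison was how the resistant B6 differed from the sensitive NZW. Cyclin D1, cyclin G1, the Mcm helicase subunits Mcm5, Mcm6 and Mcm7, and Rrm2 were lower in B6, while Rrm1 and Cdkn1c were higher in B6. Ccng2 was detected in B6 alone and was tested only through B6. In all, 22 of the 103 tested member probes (15 symbols) were called, which is 21.4% and close to the 18.9% of all 16766 tested probes. By direction, 18 member probes were lower in B6, 17.5% against 9.61% of all probes, and 4 were higher in B6, 3.88% against 9.24% of all probes. The 18 lower probes stand for 11 symbols, with 5 probes of Ccnd1 and 2 each of Ccng1, Cdc14b and Mcm6. The 4 higher probes include that of Ccng2. The median log2 difference of the tested members was -0.11, beside -0.04 over all tested probes. Left-out mice moved the count: without B6 mouse 2 there were 14 calls, and without B6 mouse 3 there were 12.

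**Figure D1:**
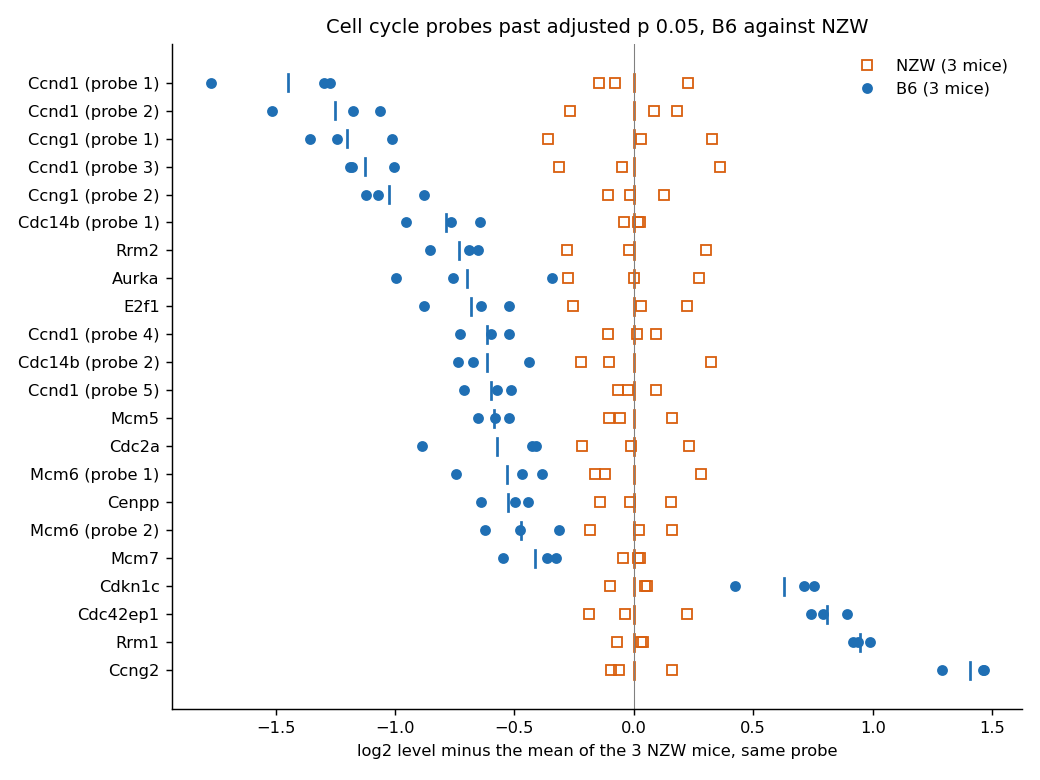
Each row is 1 of the 22 called member probes, each point is 1 mouse (filled circles B6, open squares NZW), and the x axis gives the log2 level minus the mean of the 3 NZW mice for that probe, with short bars at the strain means. The points of B6 lie left of those of NZW in the 18 upper rows, by 0.41 to 1.45 between the means, and right of them in the 4 lower rows, by 0.63 to 0.95 for Cdkn1c, Cdc42ep1 and Rrm1. In the lowest row the NZW points of Ccng2 are not above background, so that only the bound of 1.88-fold holds.

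Of the replication genes 6 of 10 tested probes (8 symbols) were called, 60% beside 18.9% of all probes. In B6 5 were lower, 50% beside 9.61% of all probes, and 2 of these were probes of Mcm6. The remaining call was higher in B6, 10% beside 9.24% of all probes, and the median log2 difference was -0.36. Promoter sequence was looked at for the called members, because several of them are textbook targets of E2F. RefSeq promoters (GRCm38.p6, the reference mouse genome) were held for 10 of the 11 symbols lower in B6, with none for Ccnd1. The first listed start of each gene was taken, and other starts were not searched. For E2f1 the 250 bases before that start read as coding sequence of the gene. E2f1 is thus counted without a match though its promoter was not searched. The 250 bases before the gene start were searched on both strands for the E2F motif, spelled TTTCCCGC, TTTGGCGC, TTTCGCGC or TTTGCCGC, and for the CCAAT box, spelled CCAAT, and overlapping matches were counted separately. An E2F match stood in 4 of these 10 (Mcm5, Mcm6, Mcm7 and Cdc2a) and in 1.91% of the promoters of 27025 genes. The members were chosen by cell cycle names and include known E2F targets. A share above that of all genes is therefore no result of these data. Of 57 symbols tested and not called, 48 had a promoter, and 5 of the 48 had a match (Cdc25a, Cdk2, Cenpb, Cenpl and E2f3). Older symbols were translated for called genes only, as for Cdc2a, and genes of 1 chromosome were left out. Called and uncalled genes were therefore not looked up alike. A CCAAT match stood in 8 of the 10, in 24 of the 48 and in 34.5% of all promoters. None of the 3 promoters held for genes higher in B6 (Ccng2, Cdc42ep1 and Rrm1) had an E2F match in this window. The 4 promoters with an E2F match are shown with those of Rrm2 and Rrm1, the subunits of ribonucleotide reductase that moved in opposite directions, with both motifs in capitals. These are reference sequences, and the sequences of the other strains were not read.
Mcm5, chr8:75109259-75109508, plus strand: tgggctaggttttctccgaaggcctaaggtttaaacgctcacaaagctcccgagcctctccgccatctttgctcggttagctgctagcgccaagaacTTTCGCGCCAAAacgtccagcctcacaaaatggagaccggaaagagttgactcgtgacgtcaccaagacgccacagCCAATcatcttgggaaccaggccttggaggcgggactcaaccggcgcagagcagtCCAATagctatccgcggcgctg
Mcm6, chr1:128359706-128359955, minus strand: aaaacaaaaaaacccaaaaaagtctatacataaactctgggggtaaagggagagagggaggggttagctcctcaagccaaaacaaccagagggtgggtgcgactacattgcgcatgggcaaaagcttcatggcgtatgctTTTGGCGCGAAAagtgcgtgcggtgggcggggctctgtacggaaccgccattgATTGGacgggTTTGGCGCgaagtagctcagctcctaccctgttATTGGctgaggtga
Mcm7, chr5:138171884-138172133, minus strand: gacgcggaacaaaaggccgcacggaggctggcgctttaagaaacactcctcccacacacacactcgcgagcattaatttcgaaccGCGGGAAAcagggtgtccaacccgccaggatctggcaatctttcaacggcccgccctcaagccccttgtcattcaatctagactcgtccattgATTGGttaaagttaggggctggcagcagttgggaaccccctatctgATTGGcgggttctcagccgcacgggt
Cdc2a (Cdk1 in RefSeq), chr10:69352913-69353162, minus strand: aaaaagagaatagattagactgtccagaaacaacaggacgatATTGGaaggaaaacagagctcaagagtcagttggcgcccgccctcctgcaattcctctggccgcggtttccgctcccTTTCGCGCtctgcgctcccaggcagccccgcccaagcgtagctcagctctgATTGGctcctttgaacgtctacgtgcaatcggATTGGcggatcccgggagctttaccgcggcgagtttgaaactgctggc
Rrm2, chr12:24708004-24708253, plus strand: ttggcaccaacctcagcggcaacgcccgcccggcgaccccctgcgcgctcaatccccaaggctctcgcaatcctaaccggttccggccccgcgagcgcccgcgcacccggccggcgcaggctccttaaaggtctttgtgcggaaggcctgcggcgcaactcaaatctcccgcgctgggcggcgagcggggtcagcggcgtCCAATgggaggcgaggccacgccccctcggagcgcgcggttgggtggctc
Rrm1, chr7:102441445-102441694, plus strand: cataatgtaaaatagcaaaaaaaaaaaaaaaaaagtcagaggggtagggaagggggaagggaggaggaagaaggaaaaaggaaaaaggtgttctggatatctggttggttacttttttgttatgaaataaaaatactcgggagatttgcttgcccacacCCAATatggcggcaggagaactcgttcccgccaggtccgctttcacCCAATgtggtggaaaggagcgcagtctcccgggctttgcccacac

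Mcm5, a subunit of the helicase that opens DNA at replication origins, had levels of 7.04, 7.10 and 6.97 in B6 and 7.56, 7.52 and 7.78 in NZW. All B6 mice lay below all NZW mice, and the log2 difference was -0.58 (SE 0.11, limma adjusted p = 0.00765), 1.5-fold lower in B6. Mcm6, of the same ring, was read by 2 tested probes. The brighter gave 6.71, 6.99 and 7.07 in B6 and 7.29, 7.34 and 7.74 in NZW, a difference of -0.53 (SE 0.16, adjusted p = 0.0458). The dimmer gave a difference of -0.47 (SE 0.13, adjusted p = 0.0397), and neither probe overlapped between the strains. For Mcm7 the probes disagreed in size: the log2 difference of the brighter was -0.41 (SE 0.11) at an adjusted p of 0.0293, whereas the other gave -0.20 (adjusted p = 0.429). Mcm4 and Mcm2 were not called, with differences of -0.31 (adjusted p = 0.126) and -0.09 (adjusted p = 0.749), and Pcna, the polymerase clamp, was detected in no mouse of this table.

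Ribonucleotide reductase makes the deoxynucleotides for DNA synthesis, and its subunits went opposite ways. Rrm2, the subunit that limits the enzyme in S phase, had levels of 6.59, 6.63 and 6.43 in B6 and 7.00, 7.58 and 7.26 in NZW. The difference was -0.73 (SE 0.16, adjusted p = 0.0121), 1.66-fold lower in B6 and without overlap. Rrm1, the large subunit, had levels of 7.39, 7.41 and 7.46 in B6 and 6.40, 6.50 and 6.51 in NZW. It was 1.93-fold higher in B6, with a log2 difference of 0.95 (SE 0.10, adjusted p = 2.46e-04), and the strains were far from overlapping. The call of Rrm2 was lost without B6 mouse 3, at an adjusted p of 0.051, and so were those of both Mcm6 probes and Mcm7, while Mcm5 and Rrm1 were still called.

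Ccnd1 (cyclin D1), which links growth signals to the G1 kinases, was lower in B6 with all 5 of its probes. Its brightest probe gave 12.20, 12.39 and 12.34 in B6 and 12.88, 12.84 and 13.00 in NZW, a difference of -0.60 (SE 0.11, adjusted p = 0.00535). The widest difference, on probe ILMN_1257949, was -1.45 (SE 0.17, adjusted p = 4.34e-04), from 6.38, 5.88 and 6.36 in B6 to 7.57, 7.88 and 7.51 in NZW. The other probes gave -1.25, -1.12 and -0.62, and on none of the 5 did the strains overlap. The other tested probes of the G1 group, for Ccnd2, Ccnd3, Cdk2 and Cdk4, were not called and lay between -0.23 and 0.11.

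**Figure D2:**
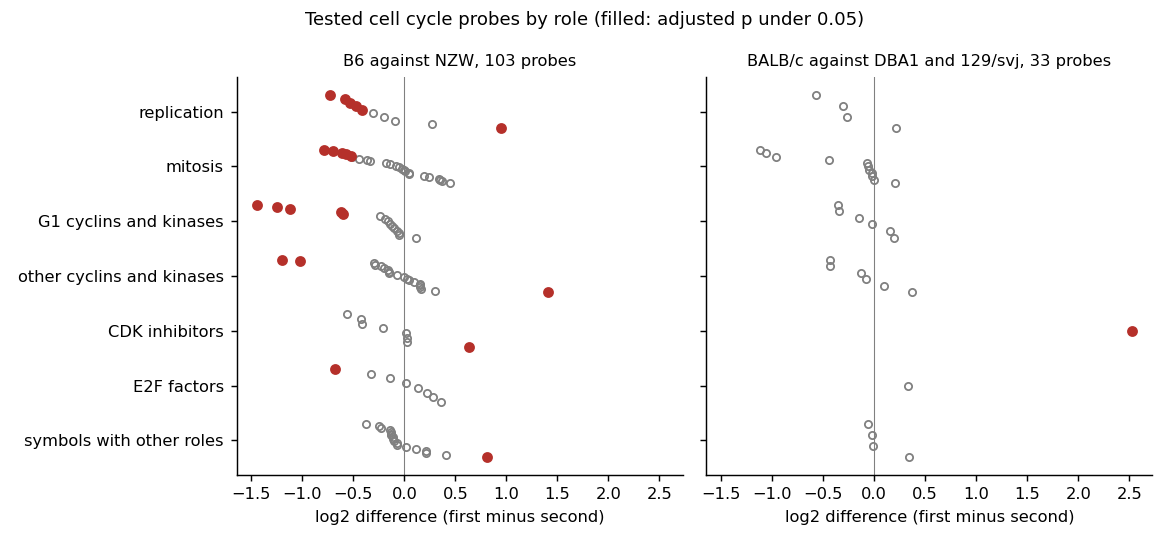
Each point is the log2 difference of a tested member probe, grouped by role, in B6 against NZW (left, 103 probes) and in BALB/c against DBA1 and 129/svj (right, 33 probes), with called probes filled. On the left 22 probes are called and 18 of them lie below 0, and on the right Cdkn2b, at 2.53, is the single call.

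Of the G-type cyclins, Ccng1 was called lower in B6 with 2 of 3 tested probes, and Ccng2 was detected in B6 alone. Ccng1, a target of p53, had levels of 8.30, 8.11 and 8.06 in B6 and 9.31, 9.16 and 9.07 in NZW on probe ILMN_2710229, a difference of -1.02 (SE 0.12, adjusted p = 4.28e-04). A second probe gave -1.20 (SE 0.18, adjusted p = 0.00201). The brightest Ccng1 probe had 11.22, 11.23 and 11.17 in B6 and 11.78, 11.26 and 11.47 in NZW, which did not overlap but gave -0.30 (SE 0.14) and was not called (adjusted p = 0.179). Ccng2, a cyclin associated with cells leaving the cycle, was detected in all B6 mice, at 6.12, 6.30 and 6.29, and in no NZW mouse. By the signal of its probe, Ccng2 was therefore at least 1.88-fold higher in B6, the bound being set by the lowest signal detected on the NZW arrays. Since it was tested only because B6 was detected, its place among the 4 higher calls is no support for a difference.

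Among the mitotic genes 5 of 24 tested probes were called, 20.8% and close to the 18.9% of all probes, all of them lower in B6, and the median difference was -0.07. Cdc14b, a phosphatase of mitotic exit, was lower with both tested probes, with log2 differences of -0.79 (SE 0.11, adjusted p = 0.00164) and -0.61 (SE 0.16, adjusted p = 0.0293). Cdc2a, the kinase of mitotic entry, had levels of 5.53, 5.52 and 5.06 in B6 and 5.73, 6.17 and 5.93 in NZW, and was lower in B6 (-0.57, SE 0.17, adjusted p = 0.0466). Aurka, the spindle pole kinase, had 5.91, 5.49 and 5.25 in B6 and 6.52, 6.25 and 5.98 in NZW (-0.70, SE 0.19, adjusted p = 0.0388), with little room between the strains. Cenpp, a protein of the inner kinetochore, was lower in B6 by 0.53 (SE 0.12, adjusted p = 0.0164). The values of Aurka and Cdc2a were near the detection limit, with 2 of 3 B6 mice detected for each.

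The proliferation marker Mki67 did not follow these genes. Its tested probe had levels of 5.97, 5.99 and 5.65 in B6 and 5.87, 5.72 and 6.19 in NZW, which overlapped (-0.06, SE 0.15, adjusted p = 0.836). Cdc20, the activator of the anaphase-promoting complex, had -0.51 (SE 0.23, adjusted p = 0.162), and Cenpa, the histone of the centromere, had 0.24 (adjusted p = 0.179). Neither Ccna2 nor Ccnb2 was detected in any mouse of these strains, and Ccnb1 was detected in 1 B6 mouse and no NZW mouse.

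Of the inhibitors, Cdkn1c (p57, carried by podocytes in the adult kidney) was higher in B6. Its levels were 11.98, 12.03 and 11.70 in B6 and 11.17, 11.32 and 11.33 in NZW, a difference of 0.63 (SE 0.12, adjusted p = 0.00818). Cdkn1a (p21), the inhibitor induced by p53, had 10.21, 9.76 and 9.07 in B6 and 10.31, 10.46 and 9.95 in NZW on its brighter probe. The strains overlapped, and neither Cdkn1a probe was called (-0.56, adjusted p = 0.189, and -0.42, adjusted p = 0.374). Among the E2F factors E2f1, itself an E2F target, was lower in B6, with 6.20, 6.31 and 5.96 against 6.87, 7.06 and 6.58 (-0.68, SE 0.15, adjusted p = 0.0154). The other 7 tested E2F probes were not called and ran from -0.33 to 0.36.

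Of the 18 tested probes with other roles, 1 was called, 5.56% beside 18.9% of all probes. This was a probe of Cdc42ep1, an effector of Cdc42 and no cell cycle regulator. It was higher in B6 by a log2 difference of 0.81 (SE 0.13, adjusted p = 0.00281), and the second Cdc42ep1 probe gave 0.22 (adjusted p = 0.23).

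Genes of the same processes that the name rule does not take were read with their brightest probe. Of 26 tested replication genes, 3 were lower in B6, Chaf1a (-1.32), Tk1 (-1.20) and Gins2 (-0.43), and 2 were higher, Orc6l (0.49) and Chaf1b (at least 1.57-fold, with no NZW mouse detected), with a list median of -0.20. The 5 calls are 19.2% of the list, beside 18.9% of all probes. Tk1 is the thymidine kinase of S phase, and Chaf1a is a subunit of the histone chaperone of replication. Of 17 tested mitosis genes none was lower in B6 and 2 were higher, the cytokinesis motor Kif23 (at least 4.36-fold) and the securin Pttg1 (at least 2.32-fold), both detected in every B6 mouse and in no NZW mouse. Kif23, Pttg1 and Chaf1b were tested only because B6 was detected. The E2F partner Tfdp1 was lower in B6 (-0.62), 1 of 14 tested genes of the retinoblastoma and anaphase-promoting complexes. Of 12 tested p53 targets, Phlda3 was higher (1.03) and Zmat3 was lower (-0.42) in B6. The shares called were 11.8% of the mitosis list, 7.14% of the retinoblastoma and anaphase-promoting complex list and 16.7% of the p53 list, each below the 18.9% of all probes.

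Markers of other cells were read beside these differences. The summed signal of 10 macrophage genes was 3497 to 6426 in B6 and 2634 to 3340.05 in NZW, without overlap. Of 9 tested, 1 was called (11.1%, beside 18.9% of all probes), C1qb, which was higher in B6. The summed signal of 11 tubule injury genes was 11902 to 21625 in B6 and 11429.9 to 13305.5 in NZW. Of these genes 54.5% were called, 3 higher and 3 lower in B6, beside 18.9% of all probes. The summed signal of 8 proximal tubule genes was lower in B6, 57027 to 67669 against 68889.7 to 74768. Of 8 tested, 2 were called, both lower in B6 (25%, beside 18.9% of all probes). Lymphocyte genes summed to 943 to 1799 in B6 and 699.6 to 897 in NZW, with Ms4a1, Cd8a and Cd4 detected in no mouse. The sums of 6 neutrophil genes and of 6 erythroid genes overlapped between the strains. The part of these cells in the member differences was not tested.

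The second table compared the resistant BALB/c with the sensitive DBA1 and 129/svj. A single member was called: Cdkn2b (p15, an inhibitor of Cdk4 and Cdk6 that is induced by TGF-beta), which was 5.77-fold higher in BALB/c. That is 1 of 33 tested member probes, 3.03%, beside 6.01% of all 15818 tested probes. Its levels were 9.09, 8.83 and 8.76 in BALB/c, 6.11, 5.91 and 6.52 in DBA1, and 6.66, 6.63 and 6.35 in 129/svj. Every BALB/c mouse lay above every sensitive mouse, and the log2 difference was 2.53 (SE 0.16, adjusted p = 9.28e-06).

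Against the single strains the members gave the same call and no other. An unadjusted p under 0.05 by limma was reached by 9 of the 33 member probes against DBA1 and by 1 against 129/svj, Cdkn2b included. The share of all probes at that cut-off was not counted. Cdkn2b was higher in BALB/c than in DBA1 by 2.71 (SE 0.18, adjusted p = 1.41e-05), where 5.75% of all probes were called, and than in 129/svj by 2.35 (SE 0.18, adjusted p = 3.03e-05), where 4.83% were called. Between DBA1 and 129/svj none of the 33 member probes was called by limma, against 4.49% of all probes, and 3 (Cdc25a, Mcm5 and Mcm7) had an unadjusted p under 0.05 by limma, as had 1 (Cdk2) by the methods' t-test. Its gene neighbour Cdkn2a, the other INK4 inhibitor at that locus, was tested in neither table, and Cdkn2b was the only Cdkn gene tested in this one.

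Of the members called between B6 and NZW, Aurka, Ccnd1, Ccng1, Mcm5, Mcm7 and Rrm1 had a tested probe here, and none was called. Cdc14b and Rrm2 had probes here that were not tested. Ccng2, Cdc2a, Cdc42ep1, Cdkn1c, Cenpp, E2f1 and Mcm6 had no linked probe, so nothing is known of them in these strains. The brightest Ccnd1 probe had 11.31, 11.66 and 12.11 in BALB/c, 12.85, 12.69 and 11.10 in DBA1, and 12.01, 12.27 and 11.32 in 129/svj, which overlapped (-0.35, SE 0.38, adjusted p = 0.701). Ccng1 lay between 11.08 and 11.41 in all 9 mice (0.10, SE 0.11, adjusted p = 0.702). Mcm5 had -0.57 (adjusted p = 0.429), Mcm7 had -0.30 (adjusted p = 0.346), Rrm1 had -0.26 (adjusted p = 0.358) and Pcna had 0.21 (adjusted p = 0.618). Cdk4 (0.20) and Ccnd2 (0.15) were not called either, and the probes of Mki67, Top2a and Rrm2 were detected in no mouse.

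The mice of 1 strain differed widely in the mitotic genes. Cenpa had 7.38, 7.09 and 6.85 in BALB/c, 8.15, 8.45 and 9.40 in DBA1, and 7.43, 6.75 and 9.18 in 129/svj. Thus all DBA1 mice and mouse 3 of 129/svj were high, and mice 1 and 2 of 129/svj lay with BALB/c. Cenpe, the kinetochore motor that moves chromosomes to the plate, had 6.15, 5.76 and 6.16 in BALB/c, 6.72, 7.11 and 7.67 in DBA1, and 6.46, 6.25 and 7.67 in 129/svj. All BALB/c mice lay below all sensitive mice. Ccnb1 (cyclin B1) was detected only in mice 2 and 3 of DBA1, at 6.65 and 7.24, and in mouse 3 of 129/svj, at 7.47, while the other 6 mice lay between 5.11 and 5.62. Aurka was detected in the same 3 mice, at 5.98, 5.74 and 6.63.

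In the fit without a replicate block none of these differences was called. For BALB/c against both sensitive strains, Cenpa had -1.12 (SE 0.47, adjusted p = 0.228) and Cenpe -0.96 (SE 0.31, adjusted p = 0.121). With the mouse number as a replicate block Cenpe was called (SE 0.22, adjusted p = 0.0429) and Cenpa was not (adjusted p = 0.165). Ccnb1 and Aurka were detected in no BALB/c mouse and were tested only through the 3 mice named above, so that no difference is given for them. Each mouse was also left out in turn. Without mouse 3 of 129/svj, high in these genes, BALB/c against DBA1 kept its differences while the SE fell. In Cenpa it was -1.56 (SE 0.32, adjusted p = 0.0202, and with that mouse SE 0.54 and adjusted p = 0.146). In Cenpe it was -1.15 (SE 0.24, adjusted p = 0.02, and with that mouse SE 0.36 and adjusted p = 0.109). DBA1 against 129/svj went from 0.88 (adjusted p = 0.58) to 1.58 (adjusted p = 0.0428) in Cenpa. No other mouse left out gave any of these calls. That mouse was picked out by the same values, so these calls are no support for a difference.

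**Figure D3:**
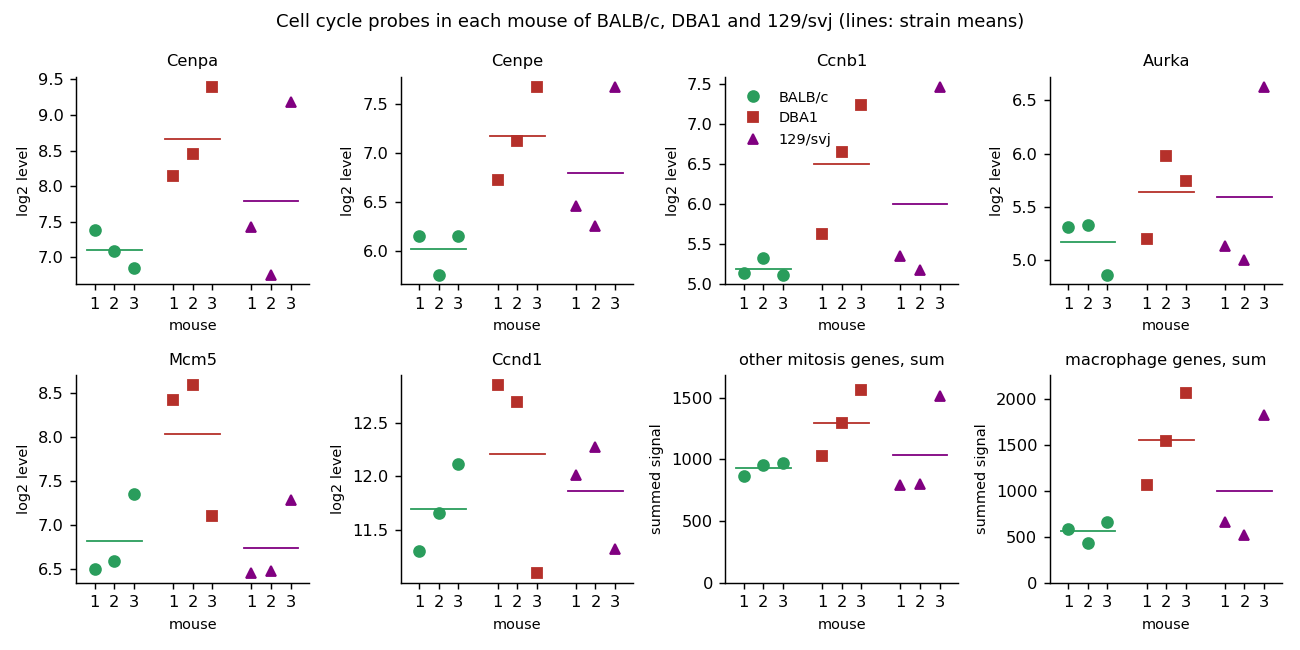
Each panel gives 1 member probe, or the summed signal of 1 gene list, in the 3 mice each of BALB/c (circles), DBA1 (squares) and 129/svj (triangles), on the log2 scale for single probes and on a linear scale from 0 for the sums, with lines at strain means. Mouse 3 of DBA1 and mouse 3 of 129/svj are high in Cenpa (9.40 and 9.18), Cenpe and Ccnb1 and in both sums. Among the sensitive mice they are the lowest in Ccnd1 (11.10 and 11.32), where BALB/c mouse 1 has 11.31.

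Replication and G1 genes were distributed otherwise over the same mice. Mcm5 had 6.49, 6.59 and 7.35 in BALB/c, 8.42, 8.60 and 7.10 in DBA1, and 6.45, 6.47 and 7.29 in 129/svj. Mice 1 and 2 of DBA1 stood above all others, and mouse 3 of DBA1 did not, although it had the highest Cenpa. The same mouse, with mouse 3 of 129/svj, had the lowest Ccnd1 of the sensitive mice. With all mice, Mcm5 was not called for BALB/c against DBA1 (-1.23, SE 0.40, adjusted p = 0.125) or DBA1 against 129/svj (1.31, SE 0.40, adjusted p = 0.133). Without mouse 3 of DBA1 both were called, at -1.70 (SE 0.32, adjusted p = 0.0151) and 1.78 (SE 0.32, adjusted p = 0.0126). No other mouse left out gave either call. Mouse 3 of DBA1 was picked out by its own Mcm5 level, so these calls are no support for a difference.

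Other mitosis genes and the markers of leukocytes and injury were read in these mice. The summed signal of 19 mitosis genes outside the name rule was 867, 958 and 968 in BALB/c, 1025, 1298 and 1563 in DBA1, and 793, 799 and 1512 in 129/svj. Of 6 tested, Tpx2, a spindle assembly factor, was called (-0.93 for BALB/c against both sensitive strains), 16.7% beside 6.01% of all probes. Between DBA1 and 129/svj the called gene was Kif23, 2.42 higher in DBA1 on the log2 scale. It was 1 of 6 tested, 16.7% beside 4.49% of all probes. The summed signal of 5 macrophage genes was 583, 437 and 665 in BALB/c, 1062, 1543 and 2070 in DBA1, and 661, 517 and 1832 in 129/svj. Of the macrophage genes Lyzs was detected in no mouse, and Cd14 was called, lower in BALB/c by 1.95 on the log2 scale. For BALB/c against both sensitive strains 1 of 4 tested macrophage genes was called, 25% beside 6.01% of all probes. The summed signal of 6 tubule injury genes was 255, 266 and 309 in BALB/c, 351, 553 and 525 in DBA1, and 308, 302 and 661 in 129/svj, with none of 5 tested called by limma and 2 at an unadjusted p under 0.05. The macrophage sum was highest in the 2 mice with the highest Cenpa, mouse 3 of DBA1 and mouse 3 of 129/svj. For 7 proximal tubule genes the summed signal was lowest in the same 2 mice, 33600 and 25560, beside 33820 to 45500 in the other 7 mice. For 6 p53 targets the sum was highest in them, 3797 and 3109, beside 2032 to 2673 in the others. The part of these cells and of injury in the member levels was not tested.

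Of 10 tested replication genes outside the name rule, 0 were called by limma in this table and 2 had an unadjusted p under 0.05, with a median difference of -0.19 for BALB/c against both sensitive strains. Neither the 4 tested genes of the retinoblastoma and anaphase-promoting complexes nor the 4 tested p53 targets were called, and 0 of either list had an unadjusted p under 0.05 by limma.

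The tables were then joined over probes whose search key was unique in both, which held 57 member pairs, 25 of them tested. Averaged over both tables, resistant strains differed from sensitive strains in 2 member probes, 8% of those tested, beside 12% of all 6896 pairs. The averaged difference was 1.31 for Cdkn2b (SE 0.18, adjusted p = 1.12e-04) and -0.64 for a Ccnd1 probe (SE 0.14, adjusted p = 0.00775). For Cdkn2b only BALB/c was higher, since B6 and NZW had means of 8.04 and 8.09. Neither was called when strain was a random block (adjusted p = 0.0832 and 0.235).

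The difference between the tables was tested directly, and it was called for 3 of the 25 member pairs, 12% beside 10.4% of all pairs. For Cdkn2b the levels on the joint scale were 8.43, 8.07 and 7.61 in B6 and 8.40, 7.40 and 8.48 in NZW, which overlapped, against 9.24, 9.01 and 8.93 in BALB/c and 5.89 to 6.71 in the 6 mice of DBA1 and 129/svj. The difference in the second table exceeded that in the first by 2.73 (SE 0.35, adjusted p = 8.41e-05). Within its own table Cdkn2b had 0.01 (SE 0.33, adjusted p = 0.985) between B6 and NZW.

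For Rrm1, higher in B6 than in NZW, the BALB/c mice had 5.83, 5.95 and 6.23 and overlapped the 5.94 to 6.56 of DBA1 and 129/svj. The difference between the tables was -1.11 (SE 0.20, adjusted p = 0.00155). For Ccnd1, lower in B6 than in NZW on this probe by 1.12, the BALB/c mice had 6.86, 7.21 and 7.41 and the sensitive mice 6.90 to 7.72, and the difference between the tables was 0.95 (SE 0.29, adjusted p = 0.0494). For Cenpa the difference between the tables was -1.36 (SE 0.62) and was not called (adjusted p = 0.214).

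**Figure D4:**
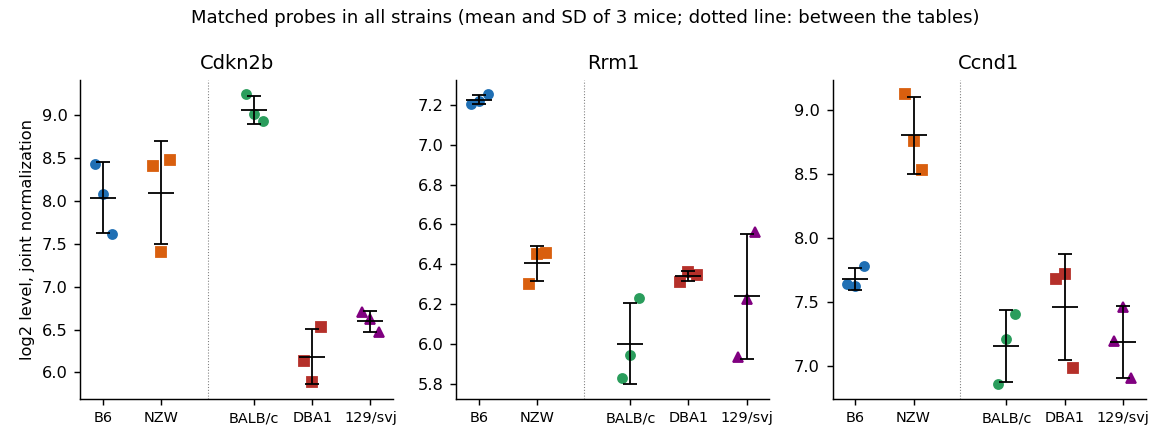
Points are single mice, and bars give the mean and SD of 3 mice, for the 3 member pairs whose strain differences differed between the tables, on the log2 scale of the joint normalisation, with a dotted line between the tables. Cdkn2b separates BALB/c (8.93 to 9.24) from DBA1 and 129/svj (5.89 to 6.71), while B6 and NZW overlap, and Rrm1 and Ccnd1 separate B6 from NZW.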

How the data were processed

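Total RNA of kidney cortex was hybridised to Illumina mouse BeadChips, read in BeadStudio per the labels. The deposited tables give the mean bead signal intensity, not normalized, and a detection p-value of every probe on every array. B6 and NZW are in 1 table, BALB/c, DBA1 and 129/svj in the other, and each table was processed on its own. Background was corrected with limma 3.58.1 (normexp from the detection p-values, offset 16) in R 4.3.3, arrays were quantile normalized over all probes and log2 transformed, and the repeat arrays of 3 mice were averaged. The offset narrows differences of dim probes. A probe was fitted if its detection p-value was at most 0.05 in 3 or more mice of the table, with lmFit and eBayes and 1 coefficient per strain, and p-values were adjusted (Benjamini-Hochberg) over all tested probes. The joint fit used 19886 probes matched by a search key unique in both tables. The number of arrays limits the precision. No batch other than the table was used, and p-values measure the spread between these mice. Strains share mouse numbers 1 to 3. Deviations of same-numbered mice correlated in all 3 pairs of DBA1 and 129/svj (0.19, 0.10 and 0.39), but not in all pairs of B6 and NZW (-0.07 to 0.01) or of BALB/c with either strain (-0.26 to 0.13). The labels name no shared litter or day, and the replicate block was an alternative. The scripts were tested on simulated data.

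Named members were marker genes of the cycle (such as Mki67, Pcna, the Mcm genes and the D cyclins) and, per comparison, the called members, up to 10 per direction by size of the log2 difference; others were named after their values were seen, such as Cenpa, Cenpe, Ccnb1 and Aurka in the second table. Other genes came from lists of mitosis, replication, retinoblastoma and anaphase-promoting complex, p53, tubule injury and cell type genes, each read by its brightest probe. The members and lists were chosen with earlier results of these data known. Alternatives changed the background correction, scaling, filter, repeat arrays, variance model, test and mice. Promoters came from RefSeq (GRCm38.p6). Some listed marker genes are not reported here.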

Additional observations from a re-analysis of the deposited data

Results flagged for a closer look

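For 3 member probes the difference between resistant and sensitive strains was not the same in both tables, by a limma test of the difference itself in the joint fit over 25 tested member pairs and 6896 pairs in all. Cdkn2b was higher in BALB/c than in either sensitive strain of its table and overlapped between B6 and NZW. Its log2 difference between the tables was 2.73, with an SE of 0.35 (adjusted p = 8.41e-05). Rrm1 was higher in B6 than in NZW and overlapped in the other table, with a difference between the tables of -1.11 (SE 0.20, adjusted p = 0.00155). Ccnd1 was lower in B6 than in NZW and overlapped in the other table, with 0.95 (SE 0.29, adjusted p = 0.0494). The call of Ccnd1 was lost without any 1 of 9 mice, at adjusted p-values of up to 0.14. Each strain was measured in 1 table alone, so that table and strains cannot be told apart. With 3 mice a strain, single mice were not screened as outliers.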

How the results depend on the processing

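No called member followed through the alternatives (up to 10 per direction and comparison) changed direction. Members that were not called did: BALB/c against 129/svj in Cenpa went from -0.68 to 0.02 without 129/svj mouse 3, and small differences of Mcm5, Mcm7, Aurka and Cdk2 also changed sign with 1 mouse left out. Calls of members for B6 against NZW were 19 to 33 with all mice, except 13 by the methods' t-test after Benjamini-Hochberg, 14 with 1 probe per gene and 2 in the joint fit, which tested 25 member pairs. Leaving out 1 mouse gave 12 (B6 mouse 3) to 22, with 14 without B6 mouse 2. Cdkn2b was called under every alternative of the BALB/c comparisons, and the counts moved by other members: for BALB/c against both sensitive strains 2 with a replicate block (Cenpe added) and 4 by the methods' t-test at an unadjusted P below 0.05. For BALB/c against DBA1 they were 2 without background correction, 2 with a replicate block, 7 by that unadjusted t-test and 1 to 3 with 1 mouse left out (2 without DBA1 mouse 1, with Cdk5rap1, or mouse 3, with Mcm5, and 3 without 129/svj mouse 3, with Cenpa and Cenpe). For BALB/c against 129/svj the unadjusted t-test gave 2. For DBA1 against 129/svj testing all probes gave 1 (Cdc25a), the unadjusted t-test 1, and leaving out 1 mouse 0 to 2 (Ccnd2 and Mcm5 without DBA1 mouse 3, Cenpa without 129/svj mouse 3). The average over both tables had 1 call by the unadjusted t-test, 0 after Benjamini-Hochberg, and 0 with strain as a random block, where 2 were called otherwise. The cause of these changes was not tested.

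With the replicate block the calls were 19 for B6 against NZW, 1 for BALB/c against 129/svj, 0 for DBA1 against 129/svj, 2 for the average and 2 for the difference between the tables (Ccnd1 lost). Aurka lost its call without NZW mouse 1 (adjusted p = 0.112), NZW mouse 2, B6 mouse 2 or B6 mouse 3.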
